A study of Mus musculus with 2 samples.

Results

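CD8 T cells were described in 2 single-cell libraries of mouse mammary tumours, 1 library per group. A cell was chosen by its UMI counts, that is, by counts of distinct RNA molecules in the deposited matrix. Kept cells were those with 500 or more UMIs and 200 or more genes, of whose UMIs no more than 20% were mitochondrial. A CD8 T cell had at least 2 UMIs of Cd3e, Cd3d and Cd3g together and at least 1 of Cd8a and Cd8b1 together, and no UMI of Cd4, Foxp3, Trdc or Epcam. In all 412 of 14709 kept cells passed, 213 of 6962 in the K2-KO library and 199 of 7747 in the control library.

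The K2-KO library came from tumours of 4T1 cells given a K2 sgRNA, with the genotype labelled K2-KO. The control library came from tumours of 4T1 cells given Ctrl sgRNA, with the genotype labelled WT. K2 is Kindlin-2, an adaptor that activates integrins and is encoded by Fermt2, and 4T1 is a mammary carcinoma line of the mouse, labelled TNBC (triple-negative breast cancer). In both groups female mice of the strain written BLB/c in the labels received the cells in the mammary fat pad. Tumours were taken at 150 mm3 and digested with collagenase for 45 min, and the live cells went through a sort on mCherry. The guide was given to the injected line, so the T cells described here are cells of the host. The labels used here do not give the mice's age, the number of tumours pooled, whether the knockout line was 1 clone, or how the sorted fractions were combined.

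CD8 T cells recognise peptides on MHC class I through the T cell receptor and kill target cells with perforin and granzymes or through Fas ligand. In tumours, cells that have met antigen for long carry inhibitory receptors such as PD-1 (Pdcd1) and TIM-3 (Havcr2). A pool with the transcription factor TCF-1 (Tcf7) keeps features of memory cells and can give rise to the TIM-3 cells. The title of the series names a role of Kindlin-2 in immune evasion, and the comparison asks how the CD8 T cells of the 2 kinds of tumour differ.

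The CD8 T cells held a median of 8323 UMIs in the K2-KO library and 9225 in the control library, and 2342746 and 2417319 UMIs in all. The whole libraries had a median of 16482.5 UMIs per kept cell in K2-KO and 22793 in control. The libraries were told apart by the suffix of the barcode, 2 for K2-KO and 1 for control, matched to the labels by that number alone. They shared 13 kept barcodes, of which none was a CD8 T cell in both and 1 was a K2-KO CD8 T cell. In tumour cells (an Epcam UMI, no Cd3 and no Ptprc UMI), Fermt2 was at 18.0 counts per 1e6 UMIs of the cells summed (CPM) in K2-KO and 41.4 CPM in control. UMIs of this assay come from the 3′ end of a transcript, so they do not read the edited site. With 1 library per group there are no replicates and no test between groups. Every interval given is a 95% interval for counting error only, and difference between animals is not covered. Shares of cells have exact Clopper-Pearson intervals, levels exact Poisson intervals, and ratios exact conditional binomial intervals. Differences of 2 log2 ratios have normal intervals made from the counting errors, which are not exact.

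The label fitted the markers that the rule did not use. Nkg7, a protein of cytotoxic granules, had a UMI in 90.1% of K2-KO and 94.0% of control CD8 T cells. Among CD4 T cells (Cd3 sum at least 2, a Cd4 UMI, no Cd8a, Cd8b1, Foxp3, Trdc or Epcam UMI) the shares were 22.1% in K2-KO and 23.9% in control. In tumour cells they were 1.25% in K2-KO and 0.625% in control, at median depths of 40051 and 36417 UMIs. In NK cells, defined further below, they were 93.4% in K2-KO and 88.9% in control, so Nkg7 does not set CD8 T cells apart from NK cells. Trac, the constant segment of the alpha chain of the receptor, had a UMI in 89.2% of K2-KO and 89.9% of control CD8 T cells. In CD4 T cells it had one in 86.2% in K2-KO and 85.1% in control, so Trac does not set CD8 T cells apart from these. The CD8 chains Cd8a and Cd8b1 are genes of the rule, so their detection does not bear on the label. Both were seen in 79.8% of K2-KO cells (170 of 213) and 87.4% of control cells (174 of 199). Among the genes most above CD4 T cells in both libraries, Gzme, Il17a and Col15a1 rested mainly on 1 cell. The others were Gzmf, the gamma chain segments Trgv2 and Tcrg-C2, Klre1, Zbtb32, Prf1 and Bend4. For Gzmf too, 1 cell held 43.3% of the UMIs. Klre1, a lectin-like receptor known from NK cells, was at 94.8 CPM in K2-KO CD8 T cells and 3.64 CPM in K2-KO CD4 T cells, and at 139 CPM against 3.57 CPM in the control library.

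At the edge of the rule, 7 cells in each library had a Cd3 sum of exactly 2. Cells with a Cd3 sum of 1 that met the other conditions numbered 5 in K2-KO and 2 in control. Another 34 K2-KO and 15 control cells were left out for a Cd4 UMI, 29 and 12 for a Foxp3 UMI, 5 and 4 for a Trdc UMI, and 36 and 33 for an Epcam UMI. Those left out for an Epcam UMI were deep, with medians of 39830 UMIs in K2-KO and 28207 in control.

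Some members carried RNA of other cell types. The macrophage and monocyte markers, all 12 of them detected, summed to 0 to 888 UMIs per cell in K2-KO (896 CPM) and 0 to 663 in control (473 CPM). The dendritic cell markers, 11 of 12 detected with Siglech at 0, reached 835 UMIs in a K2-KO cell (1284 CPM) and 120 in a control cell (231 CPM). The fibroblast and endothelial markers, all 9 detected, reached 36 UMIs in a K2-KO cell (158 CPM) and 1498 in a control cell (808 CPM). The neutrophil markers, all 8 detected, reached 200 UMIs (96.5 CPM) in K2-KO and 259 (328 CPM) in control. The B cell markers summed to 2.99 CPM in K2-KO and 35.6 CPM in control, with Ms4a1 and Pax5 among those at 0. The tumour epithelial markers summed to at most 9 UMIs in a K2-KO cell (64.5 CPM) and 17 in a control cell (81.1 CPM), with Epcam, Krt14 and Krt5 at 0. The mast cell and basophil markers held 4 UMIs in K2-KO and 2 in control. The NK markers summed to 347 CPM in K2-KO and 361 CPM in control, with Klra8, Klra4 and Klra9 at 0. The gamma-delta T cell markers summed to 154 CPM in K2-KO and 95.1 CPM in control, with Trdc and Trdv4 at 0. The CD4 T cell markers, chiefly Il2ra and Ikzf2, summed to 950 CPM in K2-KO and 746 CPM in control.

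Cells with at least 20 UMIs of the macrophage, neutrophil, dendritic, B cell, tumour, stromal (Pecam1, which T cells also express, left out) or gamma-delta lists are called mixed cells here. They numbered 16 in K2-KO and 11 in control and held 14.0% of K2-KO and 13.2% of control CD8 T cell UMIs. This limit was set after seeing the data, and values without these cells are given beside results that they moved. A doublet caller marked 3 K2-KO and 4 control CD8 T cells, which were kept because the rule has no doublet step.

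The share of CD8 T cells depended on what it was a share of. They made up 3.06% of kept cells in K2-KO tumours (interval 2.67 to 3.49%) and 2.57% in control tumours (2.23 to 2.95%), a log2 ratio of 0.25 (-0.03 to 0.54). Of cells with a Ptprc (CD45) UMI they were 5.38% in K2-KO and 5.91% in control, a log2 ratio of -0.14 (-0.42 to 0.15). Neither difference exceeded its counting error. Of all T cells (the same Cd3 limit and no Epcam UMI) they were 23.3% in K2-KO (213 of 913) and 35.1% in control (199 of 567), a log2 ratio of -0.59 (-0.87 to -0.30). These ratios also moved when some CD8 T cells were left out of the count and the denominators were left unchanged. Without CD8 T cells that held a UMI of 8 genes of other lineages, 132 K2-KO and 95 control cells were counted. The log2 ratio over all T cells was then -0.21 (-0.60 to 0.18), within counting error, and that over all kept cells 0.63 (0.24 to 1.02). As the denominators still held cells with such UMIs, these are not shares among cells without them. With dividing CD8 T cells left out of the count alone, the log2 ratio over all T cells, dividing ones included, was -0.36 (-0.72 to 0.02). In the same T cells CD4 T cells were 23.8% in K2-KO and 11.8% in control, and Foxp3 T cells were 18.0% in K2-KO and 11.3% in control. T cells as a whole were 13.1% of kept cells in K2-KO and 7.32% in control. The sort on mCherry could set shares of kept cells, and its part was not tested.

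The CD8 T cells divided differently between TCF-1 and TIM-3 in the 2 kinds of tumour. Cells with a Tcf7 UMI and no Havcr2 UMI were 37.6% of the K2-KO cells (80 of 213, interval 31.0 to 44.4%) and 12.6% of the control cells (25 of 199, 8.30 to 18.0%), a log2 ratio of 1.58 (0.92 to 2.29). Cells with a Havcr2 UMI and no Tcf7 UMI were 28.6% of the K2-KO cells (61 cells, 22.7 to 35.2%) and 50.8% of the control cells (101 cells, 43.6 to 57.9%), a log2 ratio of -0.83 (-1.31 to -0.35). In K2-KO the Tcf7 gate was the larger of the pair and in control the Havcr2 gate was. Only 4 cells in each library held both, and 68 K2-KO and 69 control cells held neither. Without mixed cells the Tcf7 gate held 38.6% in K2-KO and 12.8% in control, and the log2 ratio for the Havcr2 gate was -0.84. The share of cells with a UMI depends on depth, so each cell was also thinned to 1000 UMIs. The Tcf7 gate then held 8.92% in K2-KO and 2.01% in control (log2 ratio 2.15, 0.56 to 4.16). The Havcr2 gate held 6.10% in K2-KO and 14.1% in control (log2 ratio -1.20, -2.28 to -0.21). In tumour cells thinned alike, at most 0.299% fell in either gate in either library.

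**Figure D1:**
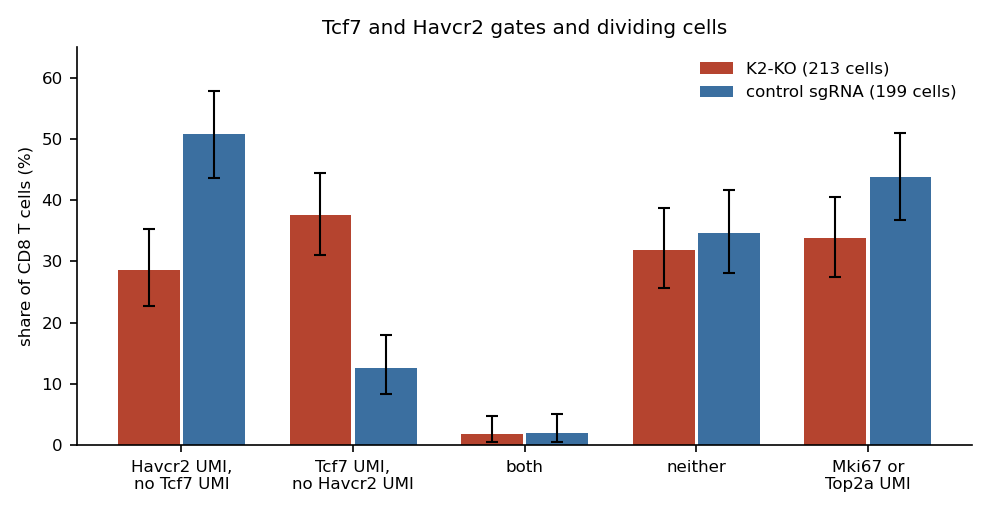
Share of CD8 T cells (%) in each gate of Tcf7 and Havcr2 UMIs and with a UMI of the division genes Mki67 or Top2a. Bars are 1 library each (K2-KO left, control right) and lines are exact 95% intervals for counting error. The Tcf7 gate holds 37.6% of K2-KO and 12.6% of control cells.

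Pairs of genes were also counted, and a pair that holds Tcf7 or Havcr2 follows in part from the gate shares. Tcf7 and Slamf6, a receptor of the TCF-1 pool, were both seen in 22.1% of K2-KO and 6.53% of control CD8 T cells. Tcf7 and Pdcd1 were both seen in 16.4% of K2-KO and 4.52% of control cells, and Tcf7 and Gzmb in 14.1% and 4.02%. Pdcd1 and Havcr2 were both seen in 26.8% of K2-KO and 49.7% of control cells, and Gzmb and Havcr2 in 18.3% and 36.7%. Pdcd1 and Tox, a pair without a gate gene, were both seen in 47.9% of K2-KO and 52.8% of control cells. That log2 ratio of -0.14 (-0.55 to 0.27) did not exceed its counting error. The Havcr2 gate was the deeper one, with medians of 13092 UMIs in K2-KO and 12229 in control. The Tcf7 gate had medians of 7593.5 in K2-KO and 7345 in control.

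Genes were compared as CPM of the UMIs summed over the CD8 T cells of each library, K2-KO over control. Of 10309 genes with at least 20 UMIs over both libraries, 1034 (10.0%) were at least 1.5-fold higher in K2-KO and 1346 (13.1%) at least 1.5-fold lower. With an interval that also left out 0, 706 (6.85%) were higher and 912 (8.85%) lower. Without mixed cells the shares past 1.5-fold were 9.64% higher and 10.6% lower, of 9457 genes. The median log2 ratio of all genes was -0.05. The counts of list members below are read against these shares, and no list was tested as a set.

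Genes of naive, memory and stem-like T cells were higher in K2-KO. Of 26 measured members of 27, 14 were at least 1.5-fold higher and 2 at least 1.5-fold lower, with a median log2 ratio of 0.71 (0.89 without mixed cells). Tcf7 (chr11:52252371-52283014, minus strand, mm10), which also defined the gates, was at 94.8 CPM in K2-KO (82.7 to 108) and 27.7 CPM in control (21.5 to 35.2), a log2 ratio of 1.77 (1.37 to 2.19). Slamf6 was at 93.9 CPM in K2-KO and 20.7 CPM in control, a log2 ratio of 2.18 (1.73 to 2.66). Both intervals lay beyond 2-fold. Lef1, the partner factor of TCF-1, was at 221 CPM in K2-KO and 87.3 CPM in control, a log2 ratio of 1.34 (1.10 to 1.58). Klf2, which drives exit from tissue, was at 402 CPM in K2-KO and 191 CPM in control, and the log2 ratio of its target S1pr1 was 1.10 (0.67 to 1.53). Ccr7, a lymph node homing receptor, was at 110.1 CPM in K2-KO and 56.3 CPM in control.

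Bach2, a repressor of effector differentiation, was at 593 CPM in K2-KO and 299.5 CPM in control, and Foxp1 at 458 CPM in K2-KO and 261 CPM in control. Cxcr5 had the highest ratio of the list (2.63, 1.09 to 4.62) at low levels, 10.2 CPM in K2-KO and 1.65 CPM in control. Il7r, the IL-7 receptor, went with neither group, at 246 CPM in K2-KO and 271 CPM in control (-0.14, -0.30 to 0.03). The 2 lower members were Igfbp4 and Xcl1. Igfbp4 was at 10.2 CPM in K2-KO and 33.1 CPM in control, and its log2 ratio of -1.69 became 0.21 without mixed cells.

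Among killing genes the difference lay in granzymes, and perforin differed little. Of 21 measured cytotoxic genes of 22, 2 were at least 1.5-fold higher and 8 at least 1.5-fold lower in K2-KO, with a median log2 ratio of -0.37. Gzma (chr13:113093825-113100981, minus strand, mm10), a tryptase of the granules, was at 72.1 CPM in K2-KO (61.7 to 83.9) and 993 CPM in control (954 to 1034), 13.8-fold lower (log2 ratio -3.78, -4.02 to -3.56). It came from few cells: 21 K2-KO cells and 31 control cells held a UMI, and the top 5 cells held 82.2% of the K2-KO and 61.4% of the control UMIs. The share of cells with a Gzma UMI was 9.86% in K2-KO and 15.6% in control. Its log2 ratio of -0.66 (-1.53 to 0.19) did not exceed its counting error. With the top cell of each library left out the log2 ratio of the level was -4.60, and without dividing cells -5.89. The smallest drop among the choices changed was a log2 ratio of -3.27. Thinned to 1000 UMIs, 3.29% of K2-KO and 12.1% of control cells held Gzma.

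Gzmb, the granzyme of effector T cells, was spread over more cells, 100 in K2-KO and 116 in control. It was at 423 CPM in K2-KO (397 to 451) and 748 CPM in control (713 to 783), a log2 ratio of -0.82 (-0.93 to -0.71). Gzmk, found in memory-like CD8 T cells, was at 67.9 CPM in K2-KO and 40.5 CPM in control (0.74, 0.37 to 1.12), 1 of the 2 genes of this list past 1.5-fold in the other direction. Ctsc, which activates granzymes, was the other, at 159.6 CPM in K2-KO and 105 CPM in control, and its log2 ratio of 0.61 was 0.26 without mixed cells. Prf1, the pore protein, was at 185 CPM in K2-KO and 204 CPM in control (-0.14, -0.33 to 0.05). Fasl was at 151 CPM in K2-KO and 163 CPM in control, and Nkg7 at 1196 CPM in K2-KO and 1452 CPM in control. Serpinb9, which protects the killer from its own granzyme B, was at 90.1 CPM in K2-KO and 149 CPM in control.

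The mouse granzymes C to G were also lower in K2-KO and rested on single cells. Gzmc was at 48.2 CPM in K2-KO and 110.0 CPM in control, with 90.3% and 65.4% of the UMIs in 1 cell. Gzmd was at 17.9 CPM in K2-KO and 104 CPM in control and was seen in 1 and 6 cells. Gzmf was at 111 CPM in K2-KO and 343 CPM in control. Gzmg had no UMI in K2-KO and was at 9.51 CPM in control. The last 300 bases of the Gzmd, Gzme, Gzmf and Gzmg transcripts are 82.4% to 88.2% identical, so the split of UMIs among these 4 is uncertain. Over that stretch Gzmb is at most 51.3% and Gzma at most 53.3% identical to any other granzyme compared.

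Cytokines and chemokines moved in both directions. Of 20 measured members of 23, 7 were at least 1.5-fold higher and 4 at least 1.5-fold lower in K2-KO. The median log2 ratio of 0.28 was -0.12 without mixed cells. Ccl5, a T cell attractant of memory cells, was at 2419 CPM in K2-KO (2357 to 2483) and 996 CPM in control (957 to 1037), a log2 ratio of 1.28 (1.21 to 1.35). It had a UMI in 163 K2-KO and 116 control cells. Xcl1, which attracts cross-presenting dendritic cells, was at 111 CPM in K2-KO and 310 CPM in control (-1.48, -1.69 to -1.28). The top 5 cells held 55.0% of its K2-KO and 61.9% of its control UMIs. Its log2 ratio ran from -1.94 to -0.38 when choices of the processing were changed. Ccl4 was at 466 CPM in K2-KO and 890 CPM in control (-0.93, -1.04 to -0.83), and 1 control cell held 25.1% of its control UMIs. Ccl3 was at 108 CPM in K2-KO and 182 CPM in control, a log2 ratio of -0.76 that was -0.25 without mixed cells.

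Interferon gamma (Ifng) was at 269 CPM in K2-KO and 304 CPM in control, a log2 ratio of -0.18 (-0.33 to -0.02). Tnf was at 58.9 CPM in K2-KO and 52.1 CPM in control (0.18, -0.18 to 0.54). Neither of these effector cytokines reached 1.5-fold. Spp1 (osteopontin) had the lowest ratio, -2.16 (-2.32 to -2.01), at 178 CPM in K2-KO and 796 CPM in control. A single control cell held 31.7% of its control UMIs, and tumour cells held it at 3366 CPM in K2-KO and 4059 CPM in control, whose part in the CD8 value was not tested. Il17a had the highest ratio, with 78.5% of all its UMIs in 1 K2-KO cell.

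**Figure D2:**
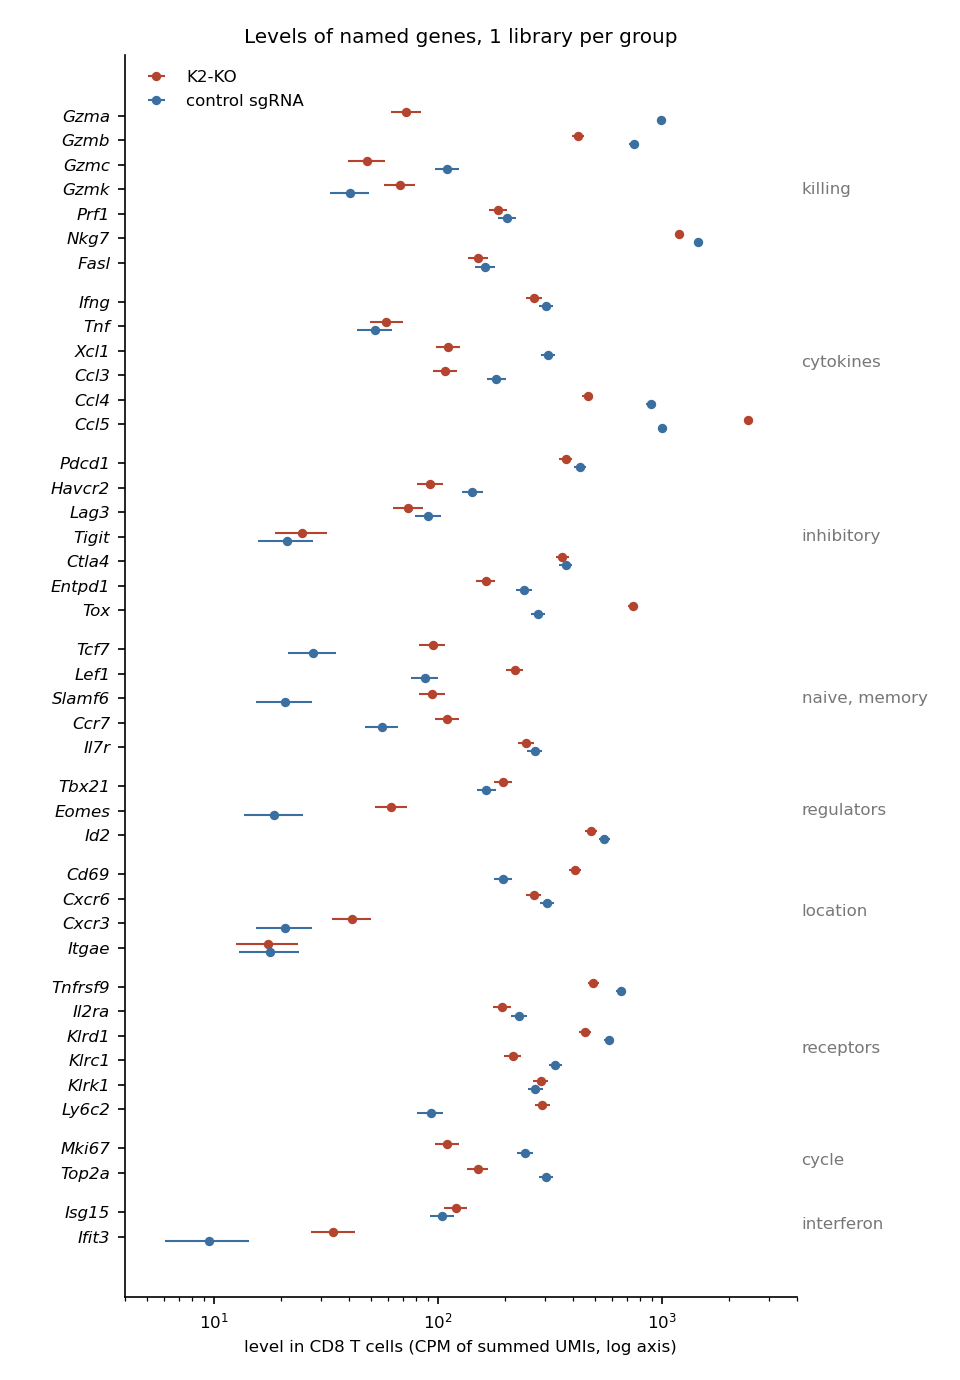
Levels of named genes in CD8 T cells (CPM of summed UMIs, log axis), K2-KO above control, 1 library each. Lines are exact Poisson 95% intervals. Gzma sits at 72.1 CPM in K2-KO and 993 CPM in control, while Prf1, Tnf, Ctla4 and Itgae nearly coincide.

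Inhibitory receptors did not move as 1 group. Of 35 measured members of 37, 9 were at least 1.5-fold higher and 4 at least 1.5-fold lower in K2-KO, with a median log2 ratio of 0.16. Tox (chr4:6686353-6991557, minus strand, mm10), a nuclear factor needed by exhausted CD8 T cells, was at 742 CPM in K2-KO (707 to 778) and 280 CPM in control (259 to 302), a log2 ratio of 1.41 (1.28 to 1.54). Havcr2 itself, which also defined the gates, was at 92.6 CPM in K2-KO and 142 CPM in control (-0.62, -0.87 to -0.37). Entpd1 (CD39), an ectonucleotidase of terminally exhausted cells, was at 163 CPM in K2-KO and 242 CPM in control (-0.57, -0.76 to -0.38), just short of 1.5-fold. Pdcd1 was at 372 CPM in K2-KO and 430 CPM in control (-0.21, -0.34 to -0.08). Lag3 was at 73.8 CPM in K2-KO and 90.6 CPM in control, Tigit at 24.8 and 21.1 CPM and Ctla4 at 359 and 372 CPM. Each of these 4 receptors differed by less than 1.5-fold.

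Btla was the highest of the list, at 24.8 CPM in K2-KO and 3.72 CPM in control (2.73, 1.71 to 3.93). Maf was at 61.9 CPM in K2-KO and 20.7 CPM in control, and Batf at 90.9 and 49.2 CPM. Rgs16, a brake on G protein signalling, was the lowest, at 220.3 CPM in K2-KO and 497 CPM in control.

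Of 19 measured effector regulators of 21, 2 were at least 1.5-fold higher and 3 at least 1.5-fold lower, with a median log2 ratio of 0.06. Eomes, a T-box factor of memory and exhausted cells, was at 61.9 CPM in K2-KO and 18.6 CPM in control (1.73, 1.24 to 2.25). Its relative Tbx21 (T-bet) was at 196 CPM in K2-KO and 165 CPM in control (0.25, 0.05 to 0.45). Id2 was at 483 CPM in K2-KO and 553 CPM in control. Cx3cr1, a receptor of effector cells, was the lowest, at 32.0 CPM in K2-KO and 73.2 CPM in control (-1.19, -1.60 to -0.80). Klrg1 had only 17 UMIs in K2-KO and 2 in control, below the limit of the lists.

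Homing and residence genes were split. Cxcr4, a receptor for the stromal chemokine CXCL12, was at 90.5 CPM in K2-KO and 18.2 CPM in control (2.31, 1.84 to 2.82) and was seen in 75 K2-KO and 29 control cells. Cxcr3 was at 41.4 CPM in K2-KO and 20.7 CPM in control (1.00, 0.49 to 1.52). Cxcr6 was at 268 CPM in K2-KO and 306 CPM in control. Of 16 measured chemokine receptor and migration genes of 21, 5 were higher and 1 lower past 1.5-fold (median 0.14). Of 17 measured residence genes of 18, 4 were higher and 4 lower (median -0.11). Cd69, an early activation and retention receptor, was at 410.2 CPM in K2-KO and 195 CPM in control (1.07, 0.91 to 1.23). Itga1, the collagen-binding integrin of resident cells, was at 63.6 CPM in K2-KO and 133 CPM in control (-1.06, -1.35 to -0.78). Itgae (CD103) was at 17.5 CPM in K2-KO and 17.8 CPM in control.

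The leukocyte kindlin did not differ beyond counting error over all CD8 T cells. Fermt3, the kindlin of blood cells, was at 119.5 CPM in K2-KO and 112 CPM in control (0.10, -0.15 to 0.34). Fermt2 had 1 UMI in the K2-KO CD8 T cells and 44 in the control ones, 41 of these in a single mixed cell, and none in control without mixed cells. Of 38 measured integrin and adhesion genes of 40, 4 were higher and 8 lower past 1.5-fold (median 0.08). Without mixed cells 2 of 31 were higher and 3 lower. Itga4 was at 345 CPM in K2-KO and 145 CPM in control (1.25, 1.07 to 1.43). Its partner Itgb7 was at 74.3 CPM in K2-KO and 32.3 CPM in control (1.20, 0.81 to 1.61). These are the chains of the alpha4beta7 receptor. The LFA-1 chains Itgal (168 CPM in K2-KO and 161 CPM in control) and Itgb2 (159 and 145 CPM) had intervals that held 0. Within the Havcr2 gate Fermt3 was higher, at 159 CPM in K2-KO and 119.6 CPM in control (0.41, 0.09 to 0.73), and so was Itgb2, at 228 and 155 CPM (0.56, 0.28 to 0.83).

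Receptor signalling and costimulation genes shifted little. Of 42 receptor signalling genes 4 were higher and 3 lower past 1.5-fold (median 0.15), and 2 and 3 without mixed cells. Cd5, a brake whose level follows receptor signal strength, was at 175 CPM in K2-KO and 71.2 CPM in control (1.29, 1.03 to 1.56), and Cd6 at 263 and 139 CPM. Egr3 was the lowest at 3.84 CPM in K2-KO and 11.2 CPM in control. Of 27 costimulation and cytokine receptors 5 were higher and none lower (median 0.15), and without mixed cells 3 of 26 were higher. Tnfrsf9 (4-1BB) was at 494 CPM in K2-KO and 656 CPM in control (-0.41, -0.52 to -0.30). Il2ra was at 193 CPM in K2-KO and 230.4 CPM in control, and Cd44 at 413 and 424 CPM.

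Of 16 measured NK receptor and innate-like genes of 25, 6 were higher and 2 lower past 1.5-fold (median 0.06), and 4 and 3 of 15 without mixed cells. Klrc1 and Klrd1, which pair as the inhibitory receptor NKG2A, were at 216 and 455 CPM in K2-KO and 334 and 580.0 CPM in control. Klrk1 (NKG2D) was at 288 CPM in K2-KO and 272 CPM in control. Ly6c2, a surface protein of memory CD8 T cells, was at 292 CPM in K2-KO and 92.7 CPM in control (1.66, 1.44 to 1.88). Fcgr3 (log2 ratio 1.26, 0.06 without mixed cells) and Zbtb16 (1.40, 0.40 without) rested on the mixed cells.

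Many interferon response genes were higher in K2-KO. Of 66 measured members of 72, 26 were at least 1.5-fold higher and 3 at least 1.5-fold lower, 59 had a ratio above 0, and the median log2 ratio was 0.41. Ifit3b had the highest ratio (2.33, 1.13 to 3.74), at 14.5 CPM in K2-KO and 2.90 CPM in control. Its near-copy Ifit3, which sequesters viral RNA, was at 34.1 CPM in K2-KO (27.1 to 42.5) and 9.51 CPM in control (6.03 to 14.3), a log2 ratio of 1.84 (1.16 to 2.58). How reads were split between these 2 copies is uncertain. Ifit1 was at 38.0 CPM in K2-KO and 15.3 CPM in control, and Oasl1 had a log2 ratio of 2.15 with 72.0% of its K2-KO UMIs in 1 cell. Isg15 was at 119.9 CPM in K2-KO and 105 CPM in control (0.20, -0.05 to 0.45, and 0.74 without mixed cells).

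Ifitm3 had the lowest ratio, -1.28, at 189 CPM in K2-KO and 457 CPM in control, where 1 cell held 48.5% of the UMIs. The tumour cells of the same libraries held Ifit3 at 35.9 CPM in K2-KO and 12.0 CPM in control, and Ifit1 at 40.4 and 22.9 CPM. Their part in the CD8 values was not tested. The 22 class I and processing genes stayed level, with 1 higher (Nlrc5), none lower and a median of -0.0034.

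Interferon-induced transcription acts through the interferon-stimulated response element, which factors of the ISGF3 complex and the IRF family bind. The motif GAAANNGAAA was searched on both strands from 250 bases before to 50 after each gene's start. It was in 61.5% of the 52 list members with a window (32 genes), against 3.99% of all 27025 genes with a window and 4.05% of the 8142 measured ones. Of 23 members at least 1.5-fold higher with an interval above 0, 19 had a window and 63.2% of these held the motif. Of the other measured members it was 60.6% of 33. Stretches of 60 bases before the gene's start are shown for 6 higher members that hold the motif, to let it be seen. Not every higher member held it: Oasl1, Socs3 and Samhd1, with lower bounds of the log2 ratio of 1.42, 1.11 and 0.92, had no match in this window. Ifih1 held it only after the gene's start. The sequences are from RefSeq, build GRCm38.p6, read along the gene's strand with the motif in capitals.
Ifit3: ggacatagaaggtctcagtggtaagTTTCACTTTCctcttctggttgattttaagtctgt
Ifit3b: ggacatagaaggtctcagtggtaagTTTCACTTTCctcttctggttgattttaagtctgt
Ifit1: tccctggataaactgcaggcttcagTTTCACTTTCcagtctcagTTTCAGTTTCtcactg
Ifi208: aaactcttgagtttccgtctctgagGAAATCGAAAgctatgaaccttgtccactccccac
Gbp5: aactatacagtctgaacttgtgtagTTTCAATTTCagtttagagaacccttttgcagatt
Rsad2: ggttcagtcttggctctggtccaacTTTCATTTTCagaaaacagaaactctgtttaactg
They lie at chr19:34583348-34583407 (Ifit3), chr19:34607744-34607803 (Ifit3b), chr19:34640760-34640819 (Ifit1), chr1:173673582-173673641 (Ifi208) and chr3:142496744-142496803 (Gbp5), all on the plus strand, and chr12:26456538-26456597 (Rsad2) on the minus strand. In Ifi208 the motif runs along the gene's strand and in the other 5 on the opposite one. Ifit3 and Ifit3b have the same letters here, and Ifit1 holds 2 motifs in its stretch. Rsad2 (viperin) was at 26.9 CPM in K2-KO and 12.4 CPM in control, Gbp5 at 50.8 and 26.9 CPM, and Ifi208 at 32.0 and 15.3 CPM.

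Cell cycle genes were lower in K2-KO. Of all 52 genes measured, 2 were at least 1.5-fold higher and 33 at least 1.5-fold lower, with a median log2 ratio of -0.81. Mki67, the proliferation antigen, was at 110.1 CPM in K2-KO (97.1 to 124) and 245 CPM in control (226 to 266), a log2 ratio of -1.16 (-1.37 to -0.94). Top2a was at 150.3 CPM in K2-KO and 303 CPM in control (-1.01, -1.20 to -0.83). The top 5 cells held 59.7% of the K2-KO and 40.6% of the control Mki67 UMIs, and 46.3% and 33.7% of those of Top2a. Cdk1 was at 21.3 CPM in K2-KO and 55.0 CPM in control, and Stmn1 at 71.7 and 182 CPM. The 2 higher genes were the D-type cyclins Ccnd2 (296 CPM in K2-KO and 196 CPM in control) and Ccnd3 (309 and 184 CPM), which act on entry into the cycle.

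The share of cells with a UMI of Mki67 or Top2a was 33.8% in K2-KO (72 of 213, interval 27.5 to 40.6%) and 43.7% in control (87 of 199, 36.7 to 50.9%). The log2 ratio of -0.37 (-0.84 to 0.10) did not exceed its counting error, nor did that of the thinned shares, 11.3% in K2-KO and 17.6% in control (-0.64, -1.46 to 0.15). Within the Havcr2 gate 44.3% of K2-KO and 49.5% of control cells held such a UMI, and within the Tcf7 gate 22.5% and 32.0%.

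Glycolysis and hypoxia genes had a median of -0.24, with 2 of 30 higher and 3 lower. Eno1 was at 282 CPM in K2-KO and 445 CPM in control (-0.66, -0.80 to -0.52). Adm, the lowest of that list, had no control UMI without mixed cells. Heat shock and immediate early genes had a median of 0.17, with 5 of 33 measured members of 34 higher and 1 lower. Fos, an immediate early factor, was at 488 CPM in K2-KO and 191 CPM in control (1.35, 1.19 to 1.51). Tumour cells held Fos at 705 CPM in K2-KO and 1095 CPM in control, the other way round.

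**Figure D3:**
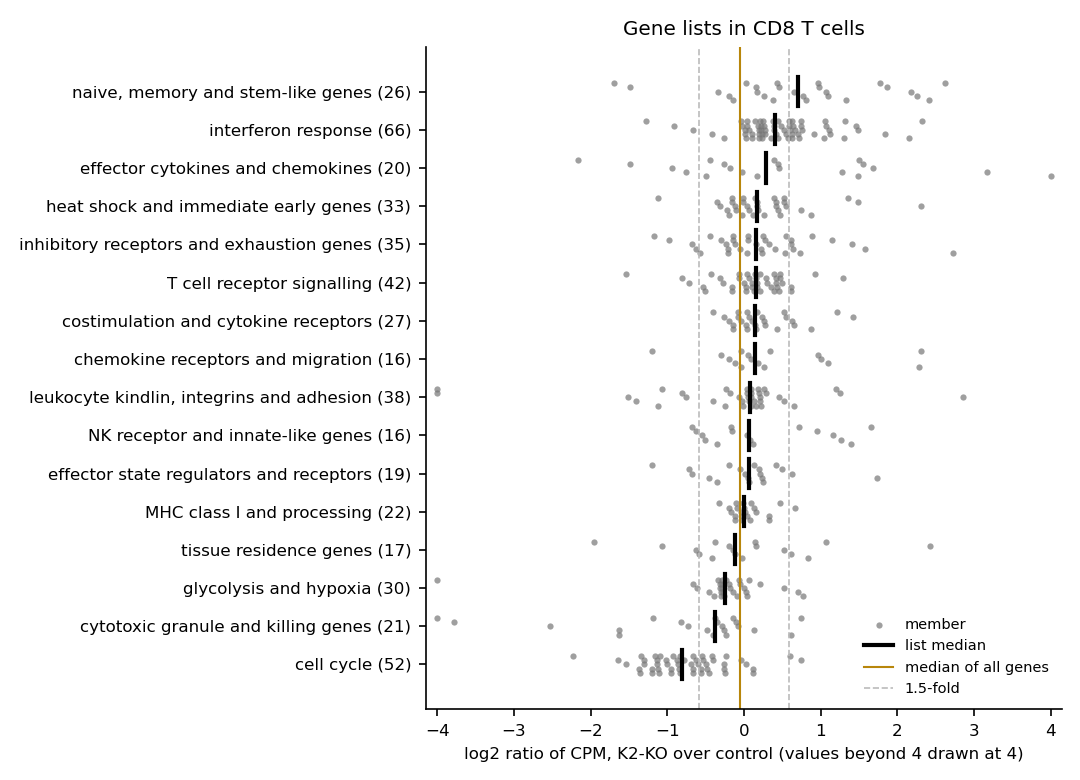
Log2 ratio of CPM, K2-KO over control, for the members of each list with at least 20 UMIs (number in brackets). Thick lines are list medians, the gold line is the median of all genes (-0.05) and dashed lines mark 1.5-fold. Naive, memory and stem-like genes have the highest median (0.71) and cell cycle genes the lowest (-0.81).

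The 10 genes in each direction with intervals farthest from 0 were picked among genes with at least 50 UMIs, at least 2-fold and with at most 25% of the UMIs in 1 cell. The higher ones were H2-Aa, Cd74, Arnt2, Rnf43, Cxcr4, Cfp, Btla, Aff3, Slamf6 and Trerf1. Rnf43, a ligase that removes Wnt receptors and a known target of Wnt and TCF factors, was at 59.3 CPM in K2-KO and 8.27 CPM in control (2.84, 2.16 to 3.60). Aff3, a nuclear protein of lymphoid cells, was at 198 CPM in K2-KO and 50.1 CPM in control (1.98, 1.69 to 2.28). Within the Havcr2 gate Rnf43 was at 86.2 CPM in K2-KO and 6.96 CPM in control (3.63, 2.71 to 4.69). Aff3 differed within the Tcf7 gate, at 432 CPM in K2-KO and 276 CPM in control (0.65, 0.22 to 1.11). Arnt2 was at 21.8 CPM in K2-KO and 1.65 CPM in control. H2-Aa and Cd74, the class II chains of antigen-presenting cells, had log2 ratios of 3.14 and 2.76, which were -0.28 and -0.13 without mixed cells. Cfp was seen in 10 K2-KO and 3 control cells, and had no control UMI without mixed cells.

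The lower ones were Gzma, Xcl1, Klra5, Areg, Styk1, Tmem273, S100a9, Camk2n1, Sema6d and Ifitm1. Klra5, a receptor of the Ly49 family of NK cells, was at 29.9 CPM in K2-KO and 229.6 CPM in control (-2.94, -3.32 to -2.58), in 11 K2-KO and 58 control cells. Styk1, a receptor-like kinase known from NK cells, was at 12.8 CPM in K2-KO and 65.8 CPM in control (-2.36, -2.98 to -1.79). Ifitm1 was at 466 CPM in K2-KO and 1174 CPM in control (-1.33, -1.44 to -1.23), in 36 and 94 cells. Some cells held 2 of these genes. Styk1 was seen in 16 K2-KO and 54 control cells, and Gzma in 21 and 31. Klra5 and Styk1 were both seen in 1 K2-KO and 26 control cells, and Klra5 and Ifitm1 in 3 and 37. Gzma and Klra5 were both seen in 3 and 15, and Gzma and Ifitm1 in 2 and 15. Whether these counts exceed what the single-gene counts alone would give was not tested. These pairs were chosen after their values were seen. Leaving out cells with an Ncr1 or Klrb1c UMI removed 3 cells of each library. Areg, an EGF receptor ligand, was at 29.5 CPM in K2-KO and 152 CPM in control, and tumour cells held it at 241 CPM in K2-KO and 226 CPM in control. S100a9, a neutrophil gene, had 97.6% of its K2-KO UMIs in 1 cell and 98.1% of its control UMIs in 5.

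The ratios were then read within each gate, as the gates took different shares of each library. Within the Havcr2 gate (61 K2-KO and 101 control cells) 8.25% of 8881 genes were at least 1.5-fold higher and 14.7% lower. The naive, memory and stem-like list then had 2 of 21 genes higher, 4 lower and a median of -0.01, and the cell cycle list 2 of 52 higher, 12 lower and a median of -0.17. The median of all genes in that gate was -0.03. Tox kept a large ratio there, at 1078 CPM in K2-KO and 257 CPM in control (2.07, 1.90 to 2.24). Eomes was at 73.9 CPM in K2-KO and 15.2 CPM in control (2.28, 1.59 to 3.02), and Slamf6 at 30.2 and 3.16 CPM (3.26, 1.86 to 4.99). Ccl5 was at 2049.8 CPM in K2-KO and 654 CPM in control (1.65, 1.54 to 1.76).

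Gzma stayed far lower in the Havcr2 gate, at 30.2 CPM in K2-KO and 882 CPM in control (-4.87, -5.47 to -4.32), as did Klra5, at 15.7 and 264 CPM (-4.07, -4.96 to -3.31). Gzmb was at 650 CPM in K2-KO and 936 CPM in control (-0.53, -0.67 to -0.39). Prf1 was higher there, at 391 CPM in K2-KO and 271 CPM in control (0.53, 0.32 to 0.74). Pdcd1 was at 623 CPM in K2-KO and 473 CPM in control (0.40, 0.24 to 0.56), Lag3 at 127 and 96.2 CPM, and Ifng at 429 and 363 CPM (0.24, 0.05 to 0.43). For these receptors and Ifng the ratio was below 0 over all CD8 T cells and above 0 within the gate, and under 1.5-fold in both. Ifitm1 was level in this gate, at 822 CPM in K2-KO and 882 CPM in control, and lower in the cells with neither gene, at 49.4 CPM in K2-KO and 2198 CPM in control, and in the Tcf7 gate, at 385 and 811 CPM.

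Within the Tcf7 gate the 25 control cells held only 184904 UMIs, and 21.1% of 5557 genes were at least 1.5-fold higher and 13.2% lower. The naive, memory and stem-like list had 1 of 24 higher and 2 lower there (median 0.09). Cell cycle genes had none of 24 higher and 14 lower (median -0.75), with Mki67 at 11.4 CPM in K2-KO and 81.1 CPM in control. Gzma ran the other way in this gate, at 172 CPM in K2-KO and 86.5 CPM in control (0.99, 0.23 to 1.84), with 98 of the 120 K2-KO UMIs in 1 cell. Gzmb was at 113 CPM in K2-KO and 48.7 CPM in control (1.22, 0.22 to 2.40). Ccl5 was at 2985 CPM in K2-KO and 1076 CPM in control (1.47, 1.26 to 1.69), above control as in the other gate. Xcl1 was at 103 CPM in K2-KO and 562 CPM in control (a log2 ratio of -2.45). The interferon list had 15 of 60 higher and 11 lower in the Havcr2 gate (median 0.17) and 11 of 59 higher and 9 lower in the Tcf7 gate (median -0.00067).

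The cells with neither gene (68 K2-KO and 69 control) made up the rest of each library, save the 4 with both. In them 12.9% of 6735 genes were at least 1.5-fold higher and 12.1% lower. The interferon list had 23 of 60 higher and 2 lower (median 0.47). Ifit1 was at 79.7 CPM in K2-KO and 32.8 CPM in control (1.28, 0.49 to 2.12), and Gbp5 at 84.4 and 29.4 CPM (1.52, 0.71 to 2.41). Ifih1, a sensor of viral RNA, was at 102 CPM in K2-KO and 27.6 CPM in control (1.88, 1.08 to 2.77). Iigp1, an interferon-induced GTPase, ran opposite ways, at 116 CPM in K2-KO and 25.9 CPM in control here (2.17, 1.35 to 3.08) and at 10.1 and 95.6 CPM in the Havcr2 gate (-3.24, -4.40 to -2.28). A single cell held 79.8% of its control UMIs. The cell cycle list had 2 of 41 higher and 17 lower (median -0.40), and the naive, memory and stem-like list 8 of 19 higher and 3 lower (median 0.24).

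Gzma was lower in these cells too, with a log2 ratio of -5.30 (-5.98 to -4.69). Gzmb was level, at 527 CPM in K2-KO and 492 CPM in control (0.10, -0.13 to 0.33). Pdcd1 was lower, at 314 CPM in K2-KO and 411 CPM in control (-0.39, -0.67 to -0.11), and Lag3 had a log2 ratio of -0.34 (-0.94 to 0.25). Tox was at 755 CPM in K2-KO and 309 CPM in control (1.29, 1.04 to 1.55), and Ccl5 at 2713 and 1837 CPM (0.56, 0.45 to 0.67).

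**Figure D4:**
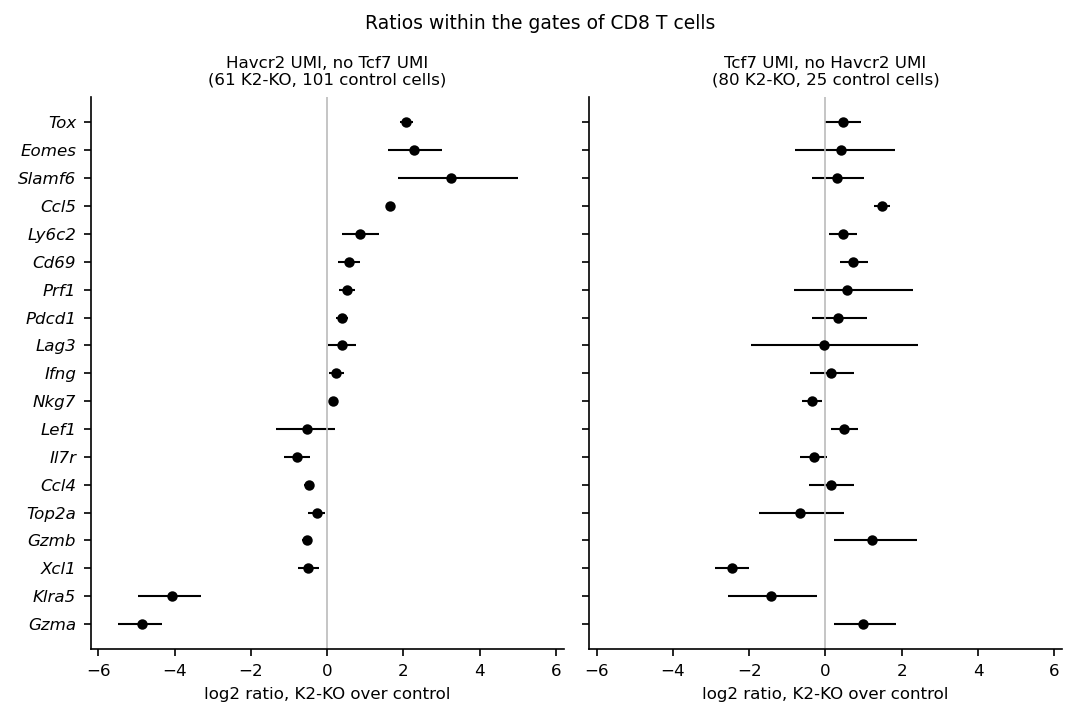
Log2 ratio of CPM, K2-KO over control, of named genes within the Havcr2 gate (left) and the Tcf7 gate (right). Points are ratios of 1 library each and lines exact 95% intervals for counting error. Tox, Eomes and Ccl5 lie above 0 in the Havcr2 gate, at 2.07, 2.28 and 1.65, and Gzma at -4.87.

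Receptor segments gave little information at this depth. A variable beta segment (Trbv) was seen in 46 K2-KO and 44 control CD8 T cells, over 11 and 13 segments. The most common was Trbv20 in K2-KO (10 cells), and in control Trbv19 and Trbv2 (8 cells each).

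Other lymphocytes of the same libraries were set beside the CD8 T cells as the difference of log2 ratios, CD8 minus the other. They were CD4 T cells (217 K2-KO and 67 control), Foxp3 T cells (a Foxp3 UMI, none of Cd8a, Cd8b1 or Trdc, 164 and 64) and NK cells (an Ncr1 or Klrb1c UMI and none of Cd3, Epcam or Lyz2, 332 and 90). All ratios come from the same 2 libraries, and the intervals cover counting error only. Those of the differences are normal approximations, which are rough where a class holds few UMIs. The Gzma ratio of -3.78 in CD8 T cells stood against 0.26 (0.19 to 0.33) in NK cells, where it was at 3816 CPM in K2-KO and 3182 CPM in control, a difference of -4.05 (-4.28 to -3.81). It was 2.84 in CD4 T cells (42 and 2 UMIs) and 4.25 in Foxp3 T cells (144 and 2 UMIs). Gzmb was -0.82 in CD8 T cells and -0.03 in NK cells, a difference of -0.79 (-0.97 to -0.61). In Foxp3 T cells it was -0.70, a difference of -0.12 (-0.35 to 0.10) that did not exceed counting error.

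The Tox ratio in CD8 T cells exceeded that in the others, by 0.60 (0.34 to 0.86) over CD4 T cells, 1.13 (0.95 to 1.30) over Foxp3 T cells and 1.44 (1.13 to 1.75) over NK cells. For Ccl5 the differences were 1.03 (0.67 to 1.39), 0.48 (0.12 to 0.84) and 1.00 (0.91 to 1.10) in the same order. For Slamf6 they were 1.69 (1.11 to 2.26), 1.46 (0.79 to 2.12) and 2.76 (1.83 to 3.70). Tcf7 was also higher in K2-KO CD4 T cells, at 176 CPM against 78.6 CPM in control CD4 T cells (1.16, 0.70 to 1.66), and the CD8 ratio exceeded this by 0.61 (0.01 to 1.21). In NK cells Tcf7 had a ratio of 0.11 (-0.47 to 0.73).

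The cell cycle list was lower in K2-KO in CD4 T cells as well, with 3 of 46 higher and 18 lower (median -0.39). It was higher in Foxp3 T cells, 34 of 46 with none lower (median 1.24), and in NK cells, 28 of 47 with 1 lower (median 0.80). For Top2a the CD8 ratio minus that of Foxp3 T cells was -2.53, and minus that of NK cells -1.86 (-2.36 to -1.36). Against CD4 T cells it was -0.15 (-0.59 to 0.30).

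The interferon list had 40 of 64 higher and 1 lower in CD4 T cells (median 0.79), 8 of 63 higher and 4 lower in Foxp3 T cells (median 0.05) and 1 of 64 higher and 27 lower in NK cells (median -0.49). Ifit3 was 4.26 (3.25 to 5.27) above its NK cell ratio in CD8 T cells and -1.24 (-4.20 to 1.72) against CD4 T cells. The naive, memory and stem-like list had medians of 0.33, 0.22 and 0.12 in CD4, Foxp3 and NK cells. Over all genes, 12.6% were higher and 18.1% lower in CD4 T cells, 17.9% and 11.6% in Foxp3 T cells, and 14.6% and 8.69% in NK cells. The smaller classes of the control library give these comparisons wide intervals.

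**Figure D5:**
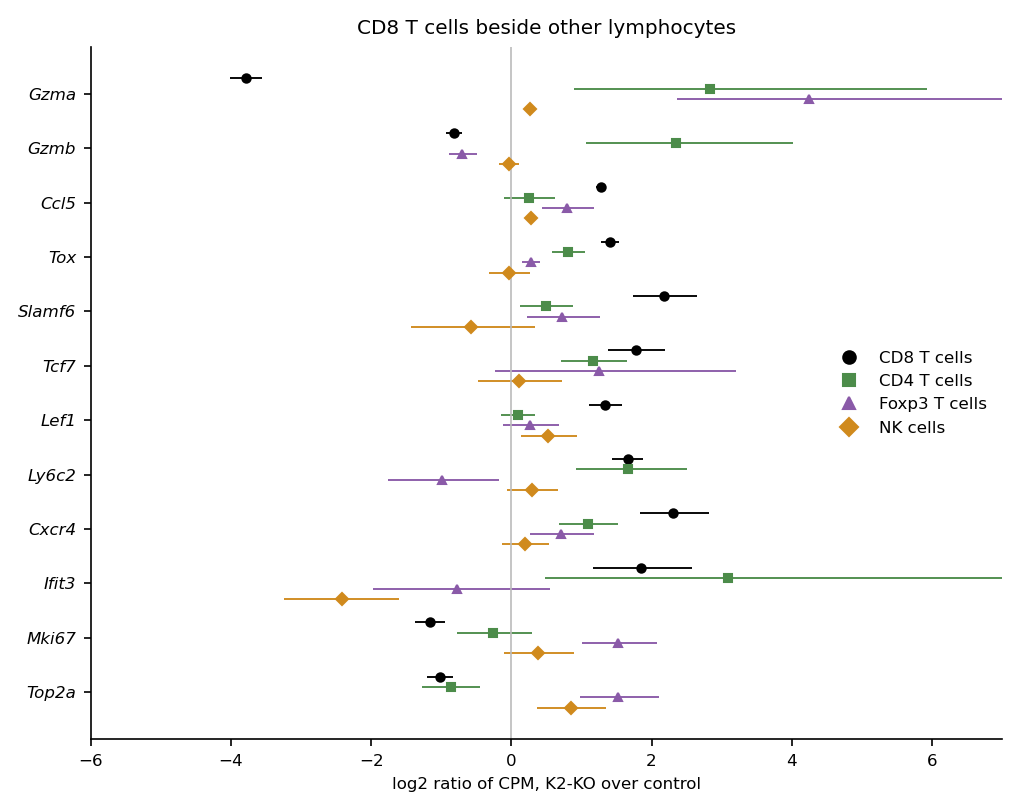
Log2 ratio of CPM, K2-KO over control, in CD8 T cells, CD4 T cells, Foxp3 T cells and NK cells for genes with at least 20 UMIs in the class. Lines are 95% intervals for counting error, cut at the axis. Gzma lies at -3.78 in CD8 T cells and at 0.26 in NK cells.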

How the data were processed

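The deposited matrix holds UMI counts per gene and cell barcode (32285 genes, 15288 barcodes), made by the authors with Cell Ranger and not normalized. Per the submitters' processing notes the version was 2.1.1 with the mm10 genome, while the file headers name 6.0.1. Libraries were made with the single cell 3′ v2 kit, per the labels. How cells were called, and whether depth was equalised when the libraries were joined, is not given in the sources used here.

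UMIs were summed over the cells of a class in each library, divided by the class total and given as CPM. Classes, gates and filters are given with the results. Levels at 0 UMIs take a floor of 3 counts; list medians in CD8 T cells did not change with such genes at that bound. Genes with at least 20 UMIs over both libraries were compared, and 1.5-fold marks a difference in size, with no test. The count minimum admits a gene through the library where it is high.

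The 16 gene lists, a panel of 48 genes and the rule by which others are named were written down for this description, with earlier results of these data known, as were the members. Genes named beyond the panel were the 10 farthest in each direction under limits on UMIs, fold, UMIs in 1 cell and level in tumour cells (under 5 times that in CD8 T cells), the ends of each list, and the 10 most above CD4 T cells. A few of these genes are not reported here. Coordinates come from GENCODE M21, in which 99.8% of the gene IDs were found. Of 40 symbols listed more than once the row with most UMIs was used. Ratios and intervals were tested on simulated counts with known changes. Scrublet in scanpy 1.11.5 called 201 of 6962 K2-KO and 217 of 7747 control cells as doublets, used only as an alternative. The scripts ran under Python 3.11.15 with scipy 1.17.1, numpy 2.4.6, matplotlib 3.10.9 and pandas 2.3.3.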

Additional observations from a re-analysis of the deposited data

How the results depend on the processing

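Each choice was changed alone: cell filters, the Cd3 and Cd8 limits, doublets, cells with RNA of other lineages, cells with NK markers, dividing cells, equal weights per cell, 2 other scalings, the top cell of each gene, the UMI minimum, and thinning. Leaving out mixed cells was added after seeing the data. The gates kept their direction wherever they were recomputed. Some list medians near 0 also changed sign within the spread of their members, such as effector regulators (-0.05 without mixed cells). The effector cytokine median (0.28) became -0.28 without cells with a UMI of Lyz2, C1qa, C1qb, S100a8, S100a9, Cd79a, Krt8 or Krt18, -0.77 without dividing cells, -0.12 without mixed cells, -0.25 with equal weights and -0.097 with at least 50 UMIs. Without those CD8 T cells (132 K2-KO and 95 control left), 763 genes were lower and Ccl3 stood at 0.10. For the shares they were left out of the CD8 count only, and the denominators kept all cells with such UMIs. The log2 ratios were then 0.63 over kept cells, 0.24 over Ptprc cells and -0.21 over T cells. Without dividing cells the cytotoxic median was -0.68 and the cell cycle median 0.37, a list those cells were chosen by. With at least 50 UMIs fewer genes could pass, 623 higher and 701 lower. With the rule on cells thinned to 2000 UMIs the Ptprc share had a log2 ratio of -0.52 (-0.87 to -0.17), beyond counting error. Without mixed cells H2-Aa was at -0.28 and Cd74 at -0.13. Other causes were not tested. With equal weights 27 of 65 named genes moved beyond their interval, and 63 of the 65 kept their sign. Without the other-lineage cells 30 of 62 moved so, 1 more (Ccl3) was reversed, and 57 kept their sign. Without dividing cells 28 of 62 moved and 58 kept their sign. Without mixed cells 8 of 63 moved, 2 more (H2-Aa and Cd74) were reversed, and 59 kept their sign. No paired analysis was possible because each group has 1 library. Depth limits genes under 20 UMIs and the 25 control cells of the Tcf7 gate.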
